A study of Oryza sativa with 3 samples.

Results

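DEAD-box RNA helicases are ATP-driven proteins that open short RNA duplexes and remodel RNA-protein complexes. The family is named for the conserved residues Asp-Glu-Ala-Asp of its ATP-binding motif, and its members work in pre-mRNA splicing, mRNA export, translation initiation, RNA decay and ribosome assembly. In plants they carry RH numbers. Genes were taken as members when their symbol or a synonym was RH followed by a number, with or without the prefix Os, and when a probe set of the array was paired with that gene alone. Of 7 genes with such a name, 4 had a probe set, out of 17905 genes in all. They are RH34 (LOC4333273), RH10 (LOC4333678), RH17 (LOC4337589) and LOC4324018, which is listed with the synonym RH2.

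The samples were 3 shoot tips of the rice cultivar Hitomebore, called biological replicates 1, 2 and 3 of a single group, CK shoot, whose abbreviation the labels do not spell out. Seeds were germinated in darkness for 2 days at 28 °C, and the seedlings were moved for about 48 h to a greenhouse held at 26 °C, where light lasted 16 h and darkness 8 h of each cycle. The growth protocol mentions more than 1 genotype, and only Hitomebore is analysed here. The sources used here do not give the number of plants per sample, and no group differs in treatment, so values could be compared with background and between samples, not between conditions.

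All values are log2 probe set values. Background was bounded by the 17 Tag control probe sets, which match no rice transcript: on each array the brightest of them was taken as a ceiling, and it read 4.98, 4.88 and 4.97 on replicates 1, 2 and 3. Brightness depends on the probes as well as on RNA, so a gene was set against this ceiling and against itself in the other samples, and no order of RNA amounts between genes is given. In whole shoot tips, fewer cells expressing a gene and less of its RNA per cell cannot be told apart. Of the markers chosen for the tissue, 5 of 6 measured shoot-tip genes were above that ceiling in every sample. The exception was OSH1, the meristem homeobox gene, which read 6.25, 3.73 and 6.47. OSH71, among the 5, was only just above it on replicate 2, at 4.93 against 4.88. Of 3 measured root markers, 2 lay above it on all arrays, as did 0 of 3 aleurone markers. Of 5 endosperm storage protein markers, 2, 5 and 1 lay above it on replicates 1, 2 and 3, and all 5 were highest on replicate 2, where the sum of their linear signals was 1262 against 194 and 203 on replicates 1 and 3. The 4 control probe sets for 18S, 25S and 28S ribosomal RNA averaged 12.05, 11.73 and 9.59.

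The name RH2 is carried by 2 genes of the annotation, and the names go against counting LOC4324018 as a helicase. EIF4A3A also bears the synonyms OsRH2 and eIF4A-III, which name a DEAD-box helicase, but no probe set is paired with it. LOC4324018 bears no other gene name than RH2, and it spans 761 bases in the assembly ASM3414082v1 against 4511, 4747 and 3579 for RH34, RH10 and RH17. A span of that size could code for only a short protein, less than the paired helicase domains of the family need. Below it is called by its identifier. The remaining names without a probe set, RH1 (LOC4338570, 878 bases) and RH3 (LOC4324051, 571 bases), belong to similarly short genes.

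All 4 members exceeded the background ceiling in every sample, as did 81.3% of all genes, so detection does not set them apart. The median of their mean levels was 8.61 (n = 4 genes), or 9.12 over the 3 genes named as helicases, beside 8.28 over all genes. The SD over the 3 samples had a median of 0.21 over the 4 members and 0.13 over the 3 helicases, beside 0.12 over all genes. In limma's test of each probe set's variance against the trend for its level, 0 of the 8 member probe sets passed an adjusted p of 0.05, and neither did any on the array (0% of 57258). At an unadjusted p under 0.05 it was 1 of the 8, that of LOC4324018, beside 2.43% of all probe sets.

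**Figure D1:**
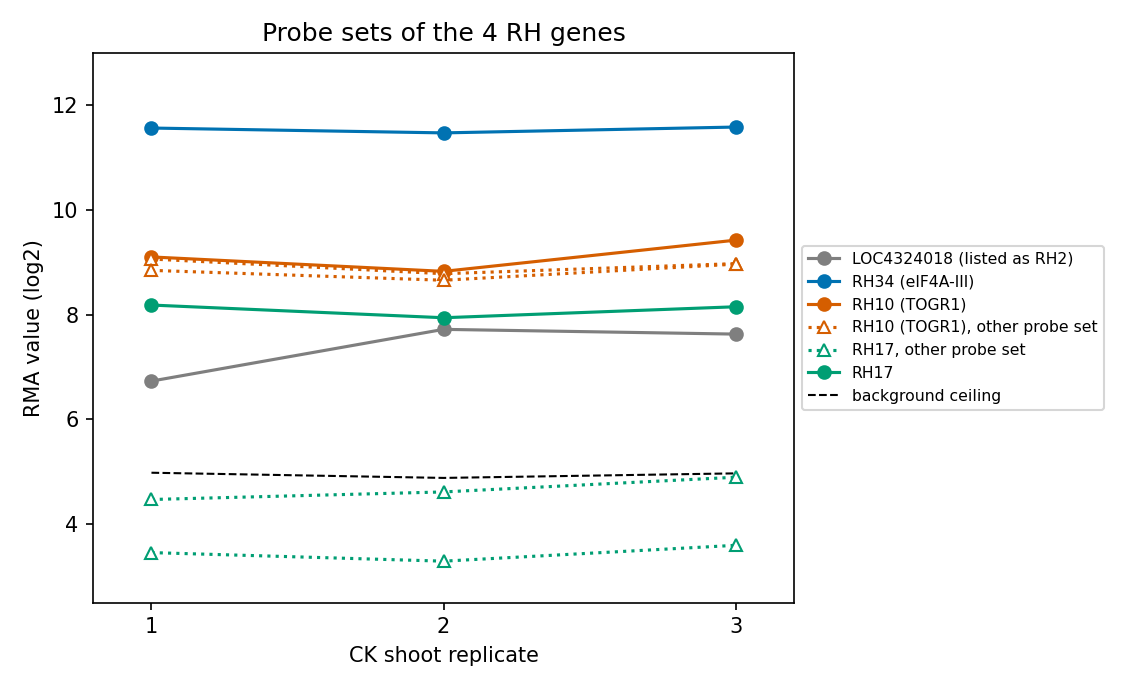
RMA values (log2) of the 8 probe sets of the 4 RH genes on each of the 3 CK shoot arrays. Filled circles are the probe set with the highest mean of each gene, open triangles the others, and the dashed line is the background ceiling; 6 probe sets lie above the ceiling on all arrays, and both open triangles of RH17 lie below it.

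RH34, also named EIF4A3B, is a copy of eIF4A-III, the helicase that clamps the exon junction complex onto spliced mRNA. It was far above background and nearly equal in all samples. Its single probe set read 11.57, 11.47 and 11.59 on replicates 1, 2 and 3. The mean was 11.54 ± 0.06 (SD, n = 3), with a 95% interval of 11.43 to 11.65 from limma, and the SD without replicate 2 was 0.01. The highest and lowest samples were 1.08-fold apart, and the SD was below that of most genes, 30.1% of the 1006 genes within 0.5 log2 of its level having a smaller one. Its variance did not pass the test (limma adjusted p = 0.96). The annotation lists EIF4A3A as a second eIF4A-III gene. Whether the RH34 probes also bind its transcript could not be checked without probe sequences, so the value may hold RNA of both copies.

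The partners of eIF4A-III in the core of the exon junction complex are MAGO and Y14 proteins, which bind each other as a pair. MAGO2 (LOC4351998) read 11.31, 11.28 and 11.39, and MAGO1 (LOC4344462) read 9.55, 9.30 and 9.48. Both lay far above the ceiling, with SDs of 0.06 and 0.13. Y14B (LOC4334528) read 4.26, 4.50 and 4.71 and lay below the ceiling on all 3 arrays, as did 15.4% of all genes, and its level could therefore not be told from background. No probe set was paired with Y14A (LOC4337757). Of the core of the complex, signal above background was thus recorded for the probe sets standing for RH34 and both MAGO genes, and for no Y14 gene. The MAGO1 value came from the brighter of its 2 probe sets, whose name ends in _x_at. Whether its probes also bind other transcripts could not be checked without probe sequences, so signal from MAGO1 alone is not established.

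RH10 is also named TOGR1, for thermotolerant growth required 1, a nucleolar helicase of pre-ribosomal RNA processing that rice needs to grow at high temperature. It was well above background in all samples by 3 probe sets. The brightest read 9.10, 8.83 and 9.42 on replicates 1, 2 and 3, a mean of 9.12 ± 0.30 (SD, n = 3; 95% interval 8.83 to 9.41, limma). The other 2 read 9.06, 8.78 and 8.98, and 8.85, 8.66 and 8.97, the latter from a probe set ending in _s_at, which can bind more than 1 transcript. Replicate 2 was lowest in all 3 probe sets. They differed on replicate 3, which was highest in 2 of them and between the others in the third.

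The spread of RH10 therefore depended on the probe set. In the brightest, the samples were up to 1.51-fold apart, and 97.5% of the 3083 genes within 0.5 log2 of its level had a smaller SD. In the other 2 the samples were 1.21-fold and 1.24-fold apart, and the SDs were 0.14 and 0.16. Without replicate 3 the SD of the brightest was 0.19. The mean of the 3 probe sets read 9.005, 8.76 and 9.12, with an SD of 0.19. The variance of the brightest did not pass the test (limma adjusted p = 0.94), nor did those of the others (adjusted p = 0.94 for both).

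RH17 is the rice gene of the RH number whose relatives in yeast (Dbp7) and human (DDX31) act in assembly of the large ribosomal subunit. Its 3 probe sets disagreed on whether it was detected. The brightest read 8.18, 7.94 and 8.15, a mean of 8.09 ± 0.13 (SD, n = 3; 95% interval 7.89 to 8.29, limma), above the ceiling on all arrays. The other 2, which the platform annotation pairs with a different source accession, read 3.45, 3.29 and 3.59, and 4.47, 4.61 and 4.89 (a probe set ending in _x_at). Both lay below the ceiling on all 3 arrays. RH17 was thus above background by 1 of its 3 probe sets.

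Such a split was common on this array. Among 3444 genes with several probe sets, 1405 (40.8%) had at least 1 above the ceiling on all arrays and at least 1 below it on all, and of the 656 genes with 3 probe sets 372 did (56.7%). Over the brightest probe set of RH17 the samples were 1.18-fold apart, and its SD was close to the median of 0.13 for the 2641 genes of its level. Replicate 2 set most of this spread, as the SD without it was 0.02. Its variance did not pass the test (limma adjusted p = 0.94).

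LOC4324018 varied most between the samples. It read 6.73, 7.72 and 7.63 on replicates 1, 2 and 3, a mean of 7.36 ± 0.55 (SD, n = 3; 95% interval 6.86 to 7.86, limma). Replicate 1 was the low sample, 1.98-fold below replicate 2, while replicates 2 and 3 were 0.09 log2 apart. All 3 values lay above the ceiling, and replicate 1 lay below the 95% interval, whose width draws on the spread of other probe sets. A smaller SD was found in 98.8% of the 2090 genes within 0.5 log2 of its level. The unadjusted p from limma was 0.027 (2.29% of genes had one under 0.05) and the adjusted p 0.94, so the variance did not pass the test. A single probe set measures the gene, and without replicate 1 the SD was 0.06.

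**Figure D2:**
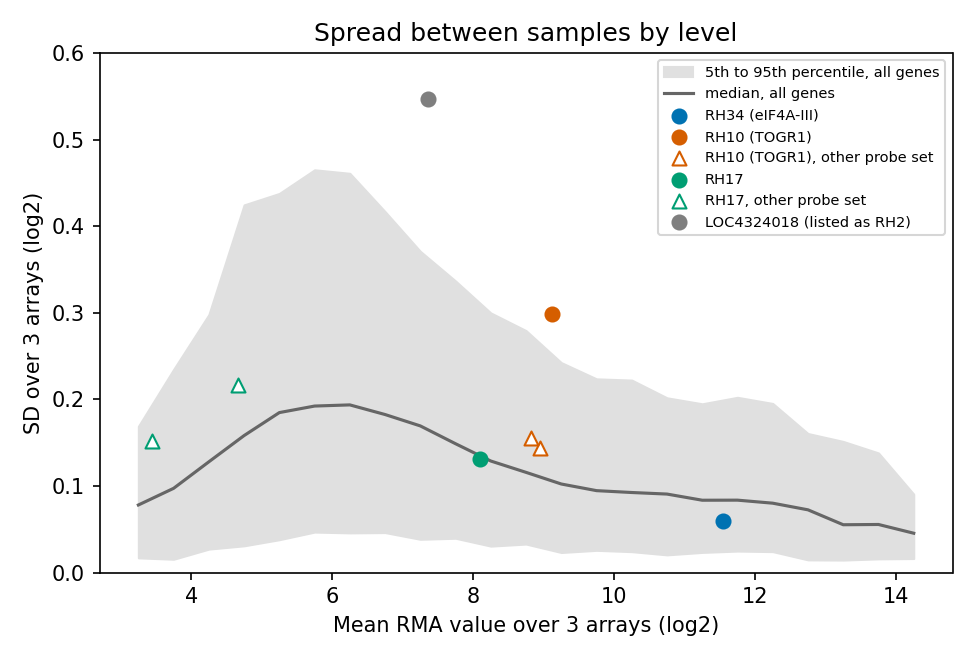
SD over the 3 arrays (log2, vertical axis) against the mean RMA value (log2, horizontal axis) for the 8 probe sets of the RH genes. The grey band spans the 5th to 95th percentile of all genes in steps of 0.5 log2 and the line is their median; LOC4324018 (SD 0.55) and the brightest RH10 probe set (SD 0.30) lie above the band, while RH34 (SD 0.06) and the brightest RH17 probe set (SD 0.13) lie near or below the line.

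The 3 genes named as helicases were all lowest on replicate 2, and LOC4324018 was highest there. Lowest on replicate 2 were 36.8% of all genes and 39.4% of those above the ceiling on all arrays. Against the mean of the other samples, replicate 2 differed by -0.10 log2 for RH34, -0.44 for RH10 and -0.23 for RH17, beside a median of -0.03 over all genes. The RH10 value is that of its brightest probe set, and its other 2 probe sets gave -0.24 and -0.25. None of the 3 helicase genes passed the variance test. Replicate 2 was also the sample with the highest endosperm markers, and the 6 measured shoot-tip markers were split there. OSH1, the KNOX gene OSH71 (6.67, 4.93 and 6.24 on replicates 1, 2 and 3) and the YABBY gene YAB1 (10.84, 10.69 and 11.07) were lowest on it. The light-harvesting genes CAB2R (13.66, 13.99 and 13.80) and LHCP (13.98, 14.11 and 13.94) and the chlorophyll synthesis gene PORA (12.18, 12.25 and 12.07) were highest on it. The part of these markers in the low helicase values was not tested. Highest on replicate 1 was 1 member (RH17; 24.4% of all genes), on replicate 2 another (LOC4324018; 25.6%), and on replicate 3, the array with the lowest ribosomal RNA controls, 2 (RH34 and RH10; 49.9%). The part of those controls in the high values on replicate 3 was not tested.

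The 3 DEAD-box genes listed under other names, chosen after the annotation was read, were lowest on replicate 2. They were AIP1 (LOC4326192), a UAP56-type helicase of mRNA export and splicing, and the translation initiation helicases eIF-4A-1 (LOC4341966) and eIF4A-2 (LOC4328286). By the brightest of its 3 probe sets, AIP1 read 12.68, 12.48 and 12.62 on replicates 1, 2 and 3. The eIF-4A-1 gene LOC4341966, by the brightest of its 3 probe sets, read 13.06, 12.93 and 12.95, and LOC4328286 read 12.05, 11.91 and 11.92. In the latter 2 genes replicates 2 and 3 were nearly equal, and all 3 genes were highest on replicate 1 (24.4% of all genes). Lowest on replicate 2 were 36.8% of all genes and 39.4% of those above the ceiling. Against the mean of the other samples, replicate 2 differed by only -0.16 log2 for AIP1, -0.07 for LOC4341966 and -0.08 for LOC4328286. With 3 genes chosen in this way, the count is no separate test of the low replicate 2 values of RH34, RH10 and RH17.

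Lists of RNA genes held 70 names, for exon junction and decay, cap binding, mRNA export, decapping, chloroplast splicing and other RNA helicases. Of these names, 11 genes of the annotation carried 1 and 8 had a probe set. Among those 8, only MAGO1, MAGO2 and Y14B belong to the complex of a member, RH34. No mRNA export or decapping name was found. Of the 8 genes, 7 exceeded the ceiling in every sample by their brightest probe set (81.3% of all genes), and Y14B lay below it. MAGO1, eIF-4A-1, eIF4G, RNC1 and SUV3 have several probe sets, and values of the others are not given. Of all genes with several, 40.8% had 1 above and 1 below the ceiling on all arrays. Of the cap-binding complex that recruits eIF4A, eIF4E (LOC4323837) read 11.90, 11.86 and 11.88, with the small SD of 0.02, and the scaffold eIF4G (LOC4343565) read 10.49, 10.45 and 10.74. SUV3 (LOC4334089), a helicase of a different family that acts on mitochondrial RNA, read 7.80, 7.45 and 7.83, and RNC1 (LOC4327567), a chloroplast intron splicing factor, 9.25, 9.10 and 8.996. Replicate 2 was lowest in 6 of the 8 genes, the exceptions being Y14B and RNC1, beside 36.8% of all genes. The 8 include eIF-4A-1, already counted among the DEAD-box genes under other names. The difference of replicate 2 from the mean of the other samples ran from -0.36 for SUV3 to 0.02 for Y14B, with a median of -0.08. None of the 8 passed the variance test (limma adjusted p of 0.94 to 1.0).

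**Figure D3:**
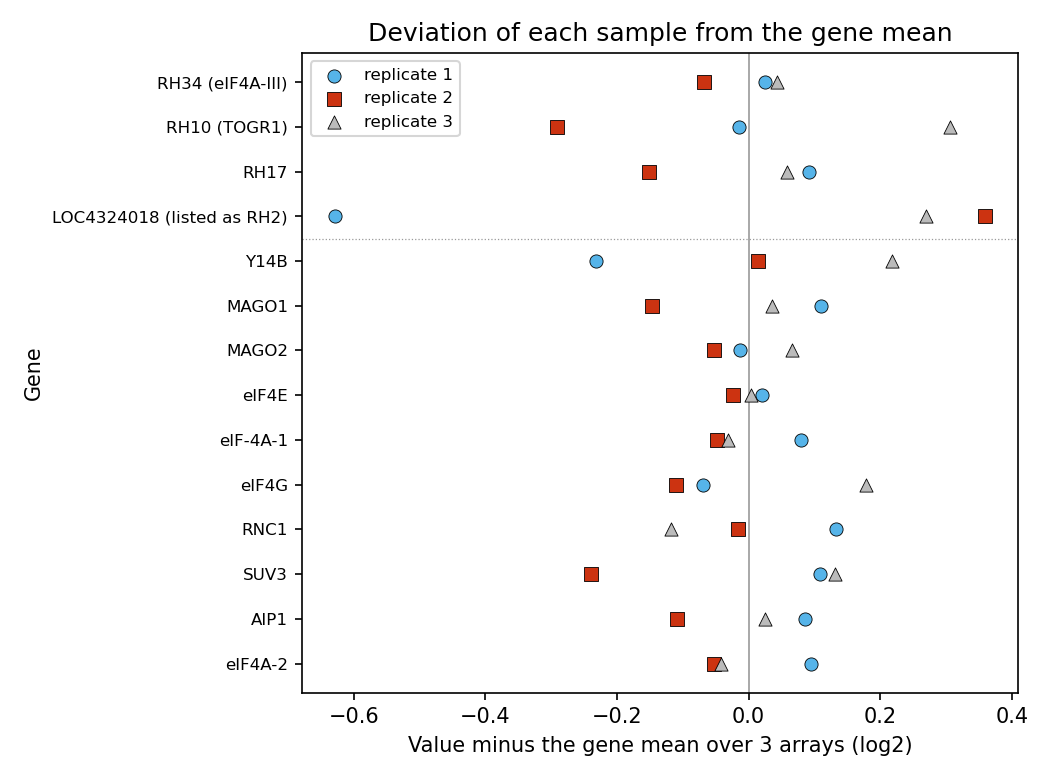
Value of each sample minus the gene's mean over the 3 arrays (log2, horizontal axis). The 4 RH genes are above the dotted line, and the genes of the RNA lists and the other DEAD-box genes are below it. Circles are replicate 1, squares replicate 2 and triangles replicate 3. Replicate 2 lies leftmost in RH34, RH10 and RH17 and rightmost in LOC4324018.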

How the data were processed

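The deposited table holds log2 probe set values. The submitters' processing notes name RMA and Affymetrix Expression Console as the tools with which the authors made them, and no version, setting or genome build. RMA quantile-normalizes the arrays, which removes differences in overall brightness, and compresses values near background. Besides 123 controls, left out of tests, the table has 57258 probe sets, of which 22436 were paired with 1 gene by the platform annotation and 95 with several. Names came from that annotation and from symbols and synonyms of assembly ASM3414082v1, and no coordinates are printed. The probe set with the highest mean stood for a gene.

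The test was limma 3.58.1 in R 4.3.3, an intercept-only fit with trended, robust eBayes over 57258 probe sets, in which each variance was divided by its prior in an F test, with p-values adjusted after Benjamini and Hochberg and a threshold of 0.05. It was tested on simulated data, where the prior degrees of freedom had to be shared by all probe sets for variable ones to be found. In the main fit of the present arrays, shared and separate prior degrees of freedom were the same. The simulation does not give the power on these 3 arrays, where even the storage protein gene RAG2 did not pass (limma adjusted p = 0.68). Between arrays, Pearson's r was 0.993 to 0.996 over probe sets, which are no independent replicates. Depth has no counterpart here, and the 3 arrays limit the precision. The labels call the samples biological replicates, and p-values measure only the spread between them.

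The members, gene lists, markers (shoot tip, root, endosperm, aleurone) and the rule for values in the text were chosen with earlier results of these data known. That rule named members by spread, by side of the ceiling and by role, which with 4 members gave all of them. Genes of the RNA lists were matched by name with hyphens ignored, a choice made after the annotation was read. Alternatives were other probe set rules, quantile normalization, another ceiling, a filter on level, another prior and leaving out each replicate. Sequences are not printed.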

Additional observations from a re-analysis of the deposited data

How the results depend on the processing

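All members stayed above the background ceiling and none lay below it under each alternative run for these counts. Several of these could not take a member below the ceiling. The second highest Tag control is a lower ceiling, and leaving out an array or LOC4324018 only removes a condition or a gene. Averaging probe sets could have done so, and RH17 then read 5.37, 5.28 and 5.55 on replicates 1, 2 and 3. None passed limma's variance test under each alternative run for it (at an unadjusted p under 0.05, 1 of 4 in the main setting). As no probe set on the array passed in the main setting, these failures do not show that the members were steady. The 3 helicases stayed lowest on replicate 2 in each alternative that kept this array. Leaving out another array, LOC4324018, dim genes or probe sets ending in _x_at and _s_at could not change this. Averaged probe sets or quantile normalization could have, and the count was 3 in both. In the main setting 36.8% of all genes were lowest there. The median level was 8.16 with the mean of all probe sets, as RH17 then fell from 8.09 to 5.40, and 9.12 without LOC4324018, a choice made after seeing the data. Highest on replicate 1 was 1 member (24.4% of all genes), and 0 with averaged probe sets. Leaving out a replicate the count was 1 to 3, the 3 without replicate 3. Highest on replicate 2 was 1 member, and 0 without LOC4324018. The median SD of 0.21 was 0.11 to 0.18 leaving out each replicate and 0.13 without LOC4324018. The median shift of the members was 0.01 on replicate 1, and -0.17 to 0.17 leaving out a replicate. On replicate 3 it was 0.25, and 0.16 to 0.17 leaving out a replicate and 0.09 without LOC4324018. Members highest on replicate 3 were 2 (49.9% of all genes), and 3 with averaged probe sets or without replicate 1 or 2. With an array left out these shares can only rise, so a count of 3 there shows no shift. No paired analysis was possible because there is 1 group. Signal over background limits what can be said of Y14B and of the dim RH17 probe sets.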
